A study of Mus musculus with 2 samples.

Results

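The circadian clock genes studied here were the 10 genes Per1, Per2, Per3, Cry1, Cry2, Dbp, Nr1d1, Nr1d2, Arntl and Clock, taken by symbol from a table of 35275 genes. All 10 were in the table, and 8 of them had at least 50 reads over both libraries, the minimum for a gene to count as measured. Nr1d1 and Per3 were below it. RNA was sequenced from TEa cells, CD4 T cells of C57BL/6 background whose transgenic receptor recognises a peptide of I-E alpha, a class II chain. Cells of the effector group had been transferred into wild-type C57BL/6 mice that carried a BALB/c skin graft, and those of the exhausted group into CB6F1 mice, the F1 cross of these strains, whose own tissues carry the antigen. TEa cells were sorted from spleen in both groups, and each group was 1 library, the effector one with 7844445 counted reads and the exhausted one with 8508129. The labels state neither the age of the mice, nor the number pooled, nor the interval after transfer, nor the time of day of harvest. Recipient strain, graft, amount of antigen and any difference in harvest time therefore cannot be told apart.

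The clock of mammalian cells is a feedback loop of transcription. The proteins of Arntl (also called Bmal1) and Clock pair on E-box sequences and switch on the Per and Cry genes, whose products then block that pair. The same pair switches on Nr1d1, Nr1d2 and Dbp, and the REV-ERB proteins of Nr1d1 and Nr1d2 repress Arntl through ROR elements, while DBP activates genes through D-boxes. In tissues with a running clock Arntl therefore peaks at about the opposite time of day to Nr1d1 and Dbp. T cells hold such a clock, and Per1 and Per2 also respond acutely to glucocorticoids and cAMP in many cells.

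Some promoters of the members hold matches to the sequences through which this loop is known to run. Those shown belong to genes that differed between the libraries or had few reads, one or more for each element found. RefSeq promoter windows on GRCm38.p6, from 250 bases before a transcript start to 50 after it, were given for 9 of the 10 genes, in 13 windows. Per2 was the gene without one. The stretches below are the 250 bases before the start, 5′ to 3′ on the strand of the gene, with matches in capitals.
Per1, chr11:69098699-69098948, plus strand, E-box in capitals: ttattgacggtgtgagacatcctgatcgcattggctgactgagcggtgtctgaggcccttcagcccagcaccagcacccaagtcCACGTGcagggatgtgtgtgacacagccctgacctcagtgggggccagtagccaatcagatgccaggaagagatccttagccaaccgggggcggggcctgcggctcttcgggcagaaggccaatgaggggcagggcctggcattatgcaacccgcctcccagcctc
Cry1, chr10:85185055-85185304, minus strand, E-prime box and E-box in capitals: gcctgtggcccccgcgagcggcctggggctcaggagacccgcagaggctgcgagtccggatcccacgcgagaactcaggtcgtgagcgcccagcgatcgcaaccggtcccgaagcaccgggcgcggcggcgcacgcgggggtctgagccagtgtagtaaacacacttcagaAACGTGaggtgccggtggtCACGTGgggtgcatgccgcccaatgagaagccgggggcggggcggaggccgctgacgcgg
Nr1d1, chr11:98775378-98775627, minus strand, E-prime box in capitals: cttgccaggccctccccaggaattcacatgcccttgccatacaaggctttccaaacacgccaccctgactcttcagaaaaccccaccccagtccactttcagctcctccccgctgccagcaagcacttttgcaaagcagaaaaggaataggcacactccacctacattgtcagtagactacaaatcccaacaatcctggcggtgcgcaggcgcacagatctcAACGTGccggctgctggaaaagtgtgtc
Per3, chr4:151044666-151044915, minus strand, D-boxes in capitals: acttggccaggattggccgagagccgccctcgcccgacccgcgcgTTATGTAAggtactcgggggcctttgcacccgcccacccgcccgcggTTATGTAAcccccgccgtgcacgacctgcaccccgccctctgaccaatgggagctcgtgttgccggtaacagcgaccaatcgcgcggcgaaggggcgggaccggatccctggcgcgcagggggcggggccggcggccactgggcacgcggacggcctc
For Arntl the match lay after the start of its second annotated transcript, so 30 bases around it are given.
Arntl, chr7:113207527-113207556, plus strand, ROR element in capitals: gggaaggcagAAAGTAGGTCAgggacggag

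Matches were sought on both strands for the E-box CACGTG, the E-prime box CACGTT, the D-box TTATGTAA or TTACGTAA, the cAMP response element TGACGTCA and the ROR element, and no match in a member's window overlapped another. Of 32851 promoter windows of all genes, 7.15% held an E-box, 4.68% an E-prime box, 1.06% a D-box, 1.79% a cAMP response element and 0.384% a ROR element. Among the members the E-box was found in Per1 and Cry1, the E-prime box in Cry1, Cry2 and Nr1d1, the D-box in Per3 at 2 places, and the ROR element in Arntl. The windows of Dbp, Nr1d2 and Clock held no match to any of the patterns, and no member's window held the cAMP response element. A match describes the letters of these short windows only.

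The T cell identity of both libraries was checked on markers. All 7 T cell markers, among them Cd3e and Cd4, had between 2539 and 29944 reads in the effector and between 4333 and 27705 in the exhausted library. Markers of other cells were compared as summed CPM (reads per 1000000 effective reads, which corrects for library size), effector first. The 5 B cell markers summed to 2.67 and 2.35, with Ms4a1 at 0 reads in both, and the 5 dendritic cell markers to 2.16 and 1.53. The B cell markers Cd79a (8 and 18 reads) and Cd79b (12 and 2) went opposite ways. The 4 neutrophil markers summed to 9.55 and 2.12. S100a8 had 30 and 1 reads, S100a9 32 and 2, Elane 13 and 15, and Ly6g 0 in both. The 4 erythroid markers summed to 11.3 and 1.53, with Hba-a1 at 50 and 6 reads. These neutrophil and erythroid sums were thus larger in the effector library, though Elane did not share that direction. The sums of macrophages and monocytes (5 of 6 markers in the table), 11.1 and 24.5, and of the 3 NK cell markers, 5.22 and 27.0, were larger in the exhausted library. The macrophage and monocyte markers did not go one way. Itgam had 22 and 183 reads, most of the exhausted sum, and Cd68 had 8 and 11. Lyz2 had 37 and 10 reads, Csf1r 18 and 4, and Cd14 2 and 0. Of the NK markers Klrb1c had 36 and 229 reads, Ncr1 5 and 0, and Klre1 0 in both. Of the CD8 T cell markers Cd8a had 0 reads in both and Cd8b1 164 and 81. The 4 stromal and endothelial markers summed to 267 and 377, nearly all in Pecam1, which T cells also express. The part of these other cells in the clock gene values was not tested. In such bulk RNA a smaller share of cells with a transcript and less transcript per cell cannot be told apart.

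The clock genes differed between the libraries in both directions. Arntl and Per1 were higher in the exhausted library, by 2.67-fold and 2.60-fold, and Cry1 was 2.04-fold lower. The call required a ratio of scaled counts of at least 2-fold and a 95% counting interval that excluded equality. It was met by 3 of the 8 measured clock genes, 2 higher and 1 lower, against 13.7% of all 9999 measured genes (6.65% higher and 7.07% lower). All 8 had under 1000 reads over both libraries, and among the 5930 measured genes under that number the share was 17.6% (8.57% higher and 9.07% lower). With so few members and 1 library per group, these counts describe the 2 libraries, have no replicate check, and carry intervals for counting error only.

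**Figure D1:**
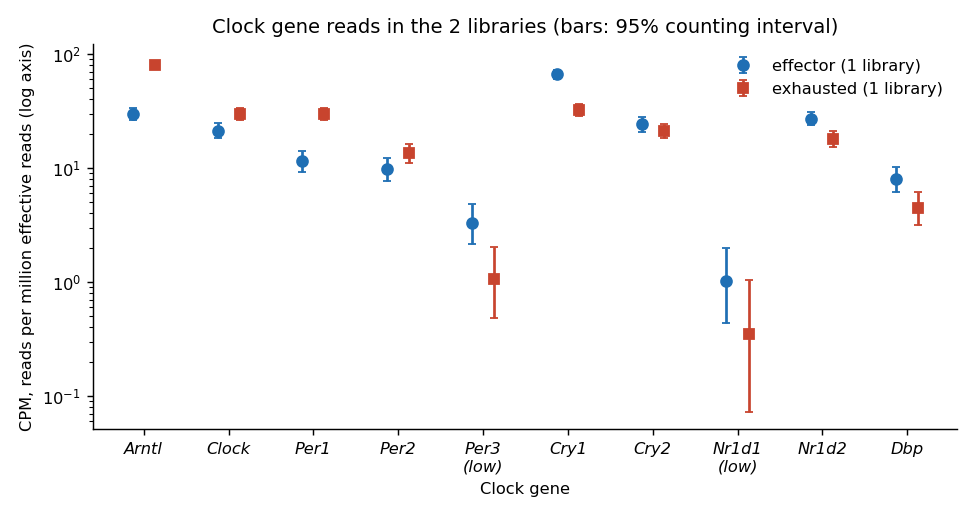
CPM of each clock gene (log axis) in the effector library (circles) and the exhausted library (squares), with 95% counting intervals as bars. Arntl and Per1 sit higher and Cry1 lower in the exhausted library with intervals apart. Intervals are also apart for Clock (higher) and for Nr1d2, Dbp and Per3 (lower), and they overlap for Per2, Cry2 and Nr1d1. The 2 genes marked low, Nr1d1 and Per3, have the widest intervals.

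Among the activators, Arntl (ENSMUSG00000055116, mm10 chr7:113207465-113314122) had 234 reads in the effector and 676 in the exhausted library. As CPM these were 29.8 and 79.6, and the ratio of 2.67 had an interval of 2.30 to 3.11. Its log2 ratio of 1.42 was above that of 96.3% of measured genes. Clock, which encodes the partner of the Arntl protein (ENSMUSG00000029238, chr5:76212177-76304548), had 167 and 253 reads and a ratio of 1.40 (1.15 to 1.71), which was under 2-fold. Both partners had more scaled reads in the exhausted library, and the ratio of Arntl to Clock reads within a library went from 1.40 to 2.67, a change of 1.91-fold (1.48 to 2.45).

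The 3 Per genes, whose proteins hold back the activators, did not go one way. Per1 (ENSMUSG00000020893, chr11:69095217-69109960) had 90 reads in the effector and 253 in the exhausted library, a ratio of 2.60 (2.04 to 3.34). Per2 (ENSMUSG00000055866, chr1:91415982-91459324) had 77 and 114 reads and a ratio of 1.37 (1.02 to 1.85), within 2-fold. Per3, the family member that mice can lack with little loss of rhythm (ENSMUSG00000028957, chr4:151003652-151044665), had 26 and 9 reads. It was 3.12-fold lower in the exhausted library (1.42 to 7.58), with an interval that excluded equality, but was under the read minimum and was not counted. Within the family, Per1 had 3.46 reads for each Per3 read in the effector and 28.1 in the exhausted library, an 8.12-fold change (3.50 to 20.3). The ratio of Per1 to Per2 changed 1.90-fold (1.28 to 2.81), so that the level of Per1 was higher in the exhausted library against both of its relatives.

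The cryptochromes, the other partners in repression, also differed from each other. Cry1 (ENSMUSG00000020038, chr10:85131702-85185054) had the most reads of the 10 genes in the effector library, 520, against 276 in the exhausted library. It was 2.04-fold lower (1.76 to 2.37), close to the threshold, and did not pass when the whole interval had to lie beyond 2-fold. Cry2 (ENSMUSG00000068742, chr2:92403646-92434043) had 189 and 180 reads and a ratio of 0.880 (0.714 to 1.09), the one measured member whose interval included equality. Because Arntl and Cry1 went opposite ways, the ratio of Arntl to Cry1 reads went from 0.450 to 2.45, a 5.44-fold change (4.40 to 6.74). Cry1 was thus the more abundant of the pair by read number in the effector library and Arntl in the exhausted library.

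The REV-ERB genes and Dbp had fewer scaled reads in the exhausted library, without passing the rule. Nr1d2, which encodes REV-ERB beta (ENSMUSG00000021775, chr14:18204054-18239127), had 213 and 153 reads and was 1.51-fold lower (1.22 to 1.87). Dbp, the D-box activator and one of the strongest rhythmic outputs in many tissues (ENSMUSG00000059824, chr7:45705088-45710155), had 63 and 38 reads and was 1.79-fold lower (1.18 to 2.76). Nr1d1, which encodes REV-ERB alpha (ENSMUSG00000020889, chr11:98767932-98775333), had only 8 and 3 reads, and its ratio of 0.347 had an interval from 0.0592 to 1.44, so a difference was not detectable at this depth. Both measured genes lay in the lower part of the range of all genes, with 13.7% of measured genes below the log2 ratio of Nr1d2 and 8.78% below that of Dbp.

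Neighbouring genes bear on 2 of these values. The exons of Nr1d1 overlap those of Thra, the thyroid hormone receptor alpha gene on the other strand, over 263 bases in GENCODE M21, and Thra had 63 and 11 reads (6.20-fold fewer in the exhausted library). The exons of Dbp overlap those of Sphk2, a sphingosine kinase gene, over 539 bases, and Sphk2 had 379 and 559 reads, a ratio of 1.36 (1.19 to 1.56), opposite in direction to Dbp. Whether the counting used strand is not given in the sources used here, so reads of such pairs cannot be told apart. Cry2 overlaps D930015M05Rik, which had 1 and 0 reads, over 295 bases, and Arntl overlaps Gm45355 over 33 bases. Per1, Per2, Per3, Cry1, Nr1d2 and Clock overlapped the exons of no other gene.

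**Figure D2:**
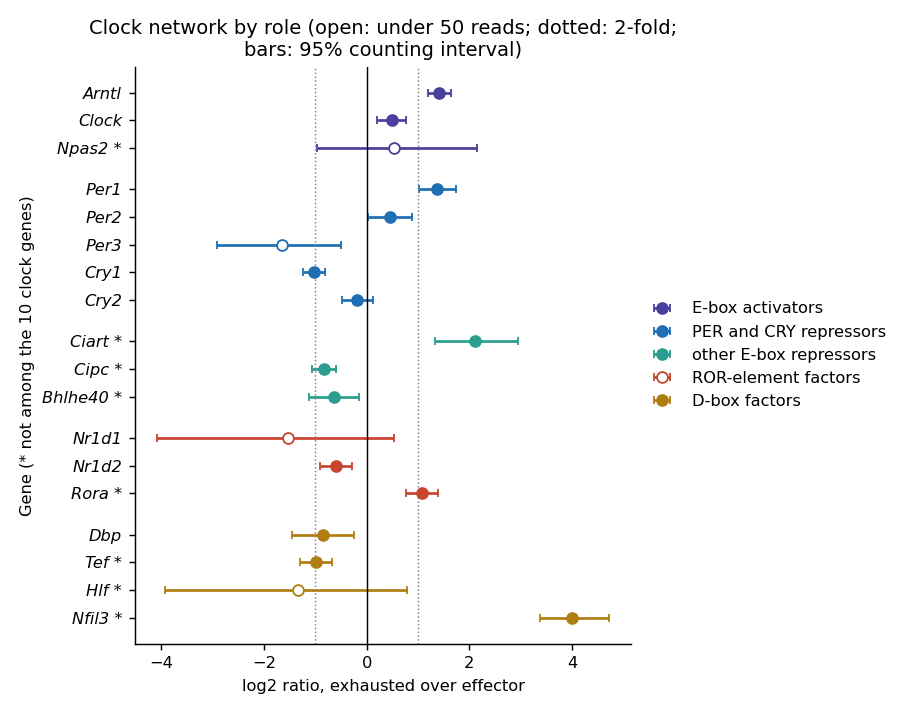
Log2 ratio of exhausted over effector scaled counts for the 10 clock genes and 8 further clock factors (starred), ordered by role, with 95% counting intervals as bars, open symbols for genes under the read minimum and dotted lines at 2-fold. Arntl, Per1, Ciart, Rora and Nfil3 lie beyond the upper 2-fold line, and of the measured genes Cry1 lies just beyond the lower one.

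Levels of different genes were compared per length, as CPM divided by the gene length in kilobases. On that scale the clock genes were mostly of low abundance, and 1 of the 10 stood above the median measured gene in each library (14.5 in both). That one was Cry1 in the effector library, at 22.0, and Arntl in the exhausted library, at 27.4. In the effector library Cry1 was followed by Arntl at 10.3, Cry2 at 6.05, Nr1d2 at 5.82, Dbp at 4.48, Clock at 2.84, Per1 at 2.45, Per2 at 1.68, Per3 at 0.552 and Nr1d1 at 0.374. In the exhausted library the order was Arntl, Cry1 at 10.8, Per1 at 6.37, Cry2 at 5.33, Clock at 3.98, Nr1d2 at 3.86, Dbp at 2.50, Per2 at 2.30, Per3 at 0.177 and Nr1d1 at 0.130. Arntl and Cry1 exchanged the first rank, Per1 moved from the seventh place to the third, and Per3 and Nr1d1 were last in both. With 1 library per group there is no spread over samples, so whether neighbours in these orders differ beyond it is not known. The 10 genes together took 202 of each 1000000 counted reads in the effector and 230 in the exhausted library.

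**Figure D3:**
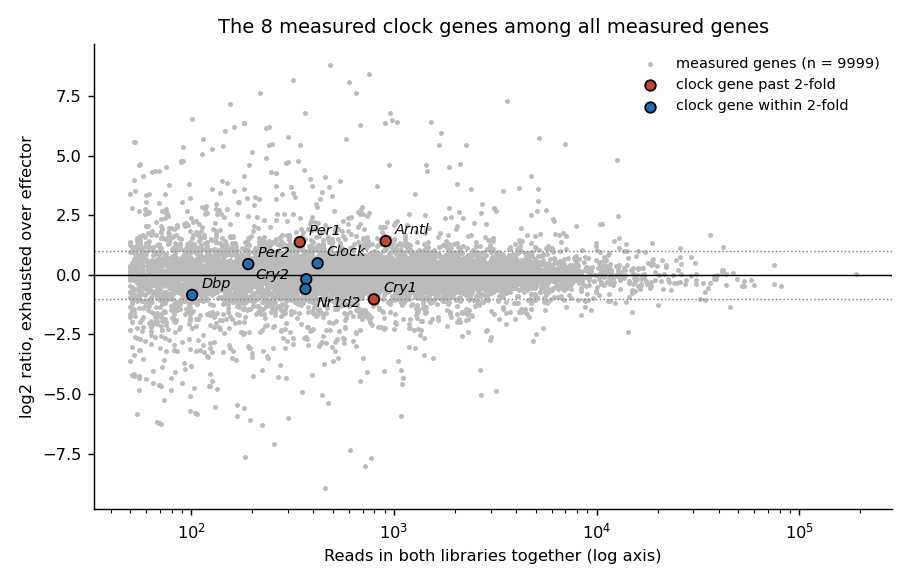
Log2 ratio of exhausted over effector against the reads of both libraries together (log axis) for 9999 measured genes (grey) and the 8 measured clock genes (large points, red where past 2-fold). Arntl at 1.42 and Per1 at 1.38 lie above the upper dotted line and Cry1 at -1.03 just below the lower one.

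As a group the measured clock genes were not shifted one way. Their log2 ratios ran from -1.03 to 1.42, with 4 above and 4 below 0, and their median was 0.13 against -0.002 for all measured genes. The median absolute log2 ratio was 0.72 for the 8 clock genes and 0.32 for all measured genes. The 8 all had under 1000 reads, and the same median for genes of that depth is not given. With Per3 and Nr1d1 included, the median over all 10 was -0.39, of the opposite sign, with 4 ratios above and 6 below 1. Counting intervals excluded equality for 7 of the 8, compared with 6287 of the 9999 measured genes.

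Ratios of members within a library do not depend on how libraries are scaled, and they were computed for all 45 pairs. The 95% interval of the change between libraries excluded equality for 29 pairs, and 21 of these changed by at least 2-fold. The same share over pairs of all measured genes is not given, so these counts have no background beside them. Pairs share genes and are not independent of one another, and they include those with Per3 and Nr1d1, which were under the read minimum. The change was largest for Arntl against Per3, from 9 to 75.1 reads per read (8.35-fold, 3.71 to 20.5), with Per3 at only 26 and 9 reads. Arntl also changed 4.79-fold against Dbp (3.06 to 7.56), from 3.71 to 17.8, and 4.02-fold against Nr1d2 (3.09 to 5.23), from 1.10 to 4.42. Per1 changed against the same genes by nearly the same amounts, 4.66-fold against Dbp (2.84 to 7.67) and 3.91-fold against Nr1d2 (2.81 to 5.45). Nr1d2 and Dbp kept a ratio that changed by 1.19-fold (0.741 to 1.93), an interval that includes equality.

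**Figure D4:**
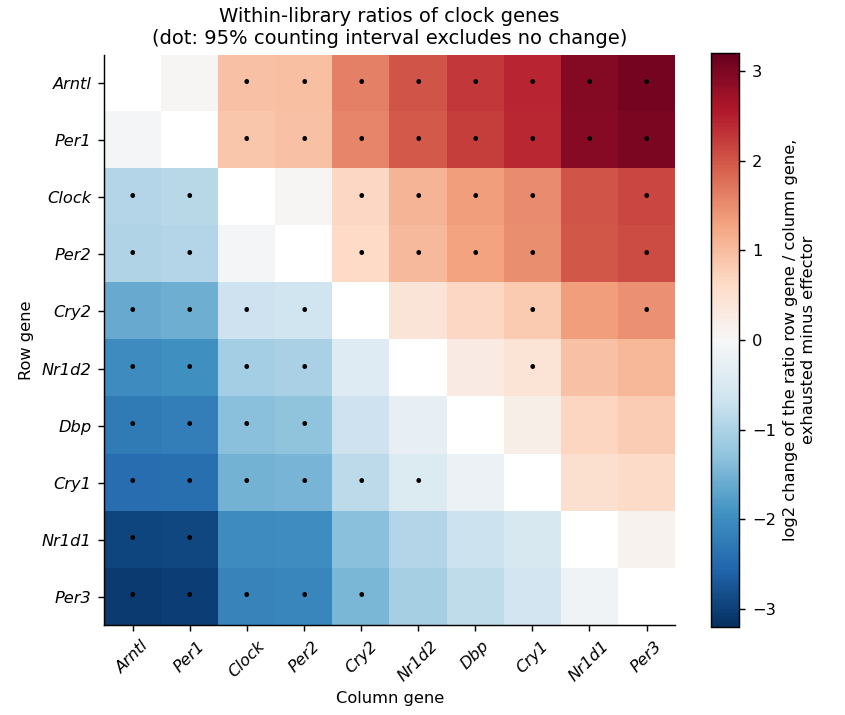
Log2 change, exhausted minus effector, of the ratio of the row gene to the column gene within a library for the 10 clock genes, sorted by their own ratio, with a dot where the 95% counting interval excludes no change (29 of 45 pairs). The rows of Arntl and Per1 are red against nearly all other genes, and the corner of Arntl and Per1 against Per3 and Nr1d1 is darkest. The share of dots over pairs of other genes is not given.

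A contrast of element classes was taken in the same way. The classes came from the known wiring of the loop and not from the promoter matches. They set the mean log2 count of Per1, Per2, Per3, Dbp, Nr1d1 and Nr1d2, known E-box targets, against that of Arntl, Clock and Cry1, known targets of ROR elements. The matches depart from these classes, since the window of Cry1 held an E-box and an E-prime box and no ROR element, that of Per3 held D-boxes alone, and those of Clock, Dbp and Nr1d2 held none. The difference was -2.40 in the effector and -3.15 in the exhausted library, a change of -0.75 on the log2 scale with a counting SE of 0.21. Cry2 (189 and 180 reads) was placed in neither class, and neither class was uniform. In the E-box class Per1 was higher while Per3 had fewer reads, and in the ROR-element class Arntl was higher and Cry1 lower. The mean gives each gene equal weight, also Nr1d1 (8 and 3 reads) and Per3 (26 and 9), both under the read minimum. The size of the contrast moved with the choice of genes, to -0.54 without Nr1d1 and to -1.41 without Cry1. It moved with the summary too, to -0.13 from the summed counts of the same 9 genes. A contrast without both low genes is not given.

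Among 12 further transcription factors of the clock network, 6 were measured, 3 of which were higher (Nfil3, Ciart and Rora), none lower and 3 within 2-fold. Of all measured genes 6.65% were higher and 7.07% lower. Nfil3, which encodes a repressor that competes with DBP at D-boxes, had 21 reads in the effector and 366 in the exhausted library, a ratio of 16.1 (10.4 to 26.3). Ciart, which encodes a repressor of the Arntl and Clock pair, had 17 and 79 reads and a ratio of 4.30 (2.52 to 7.74). Rora, whose protein activates genes through ROR elements, had 125 and 286 reads and a ratio of 2.12 (1.71 to 2.63). These 3 were on the higher side together with Arntl and Per1.

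The remaining 3 measured factors had fewer scaled reads in the exhausted library. Tef, a relative of Dbp, had 253 and 138 reads and was 1.98-fold lower (1.61 to 2.46), just short of the threshold. Cipc, which encodes an inhibitor of the Clock protein, had 417 and 253 reads and was 1.78-fold lower (1.52 to 2.09). Bhlhe40, a repressor at E-boxes, had 90 and 63 reads and was 1.55-fold lower (1.11 to 2.17). Among the unmeasured factors Npas2, which can stand in for Clock, had 7 and 11 reads, Hlf, the other Dbp relative, 7 and 3, and Rorb 3 and 0. Bhlhe41 and Arntl2 had 1 and 0 reads each. The Dbp relatives thus shared its direction in read number, as far as their depth shows.

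Genes of the proteins that modify or accompany the clock proteins all lay within 2-fold where measured. None of 18 measured kinase, phosphatase and ubiquitin enzyme genes passed the rule, and their median log2 ratio was 0.005. The widest were Csnk2a2, a casein kinase subunit gene (153 and 94 reads, 1.76-fold lower), Huwe1, a ubiquitin ligase gene (810 and 1468, ratio 1.68), and Prkaa1, a subunit gene of AMP-activated kinase (717 and 494, 1.57-fold lower). None of 21 measured cofactor genes passed it either, with a median of 0.11. The acetyltransferase gene Ep300 had 970 and 2045 reads and a ratio of 1.95 (1.80 to 2.11), the RNA helicase gene Dhx9 a ratio of 1.64 and Sfpq, which encodes an RNA-binding partner of the PER complex, a ratio of 1.58. The core factors held 3 calls among 8 members and 3 among 6 further factors, and the difference between the lists was not tested. Of all measured genes 13.7% passed the 2-fold rule in either direction. At a threshold of 1.5-fold, passed by 27.3% of measured genes (13.7% higher and 13.6% lower), 2 clock genes were higher and 3 lower, 4 cofactor genes were higher, and of the enzymes 1 was higher and 2 were lower.

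**Figure D5:**
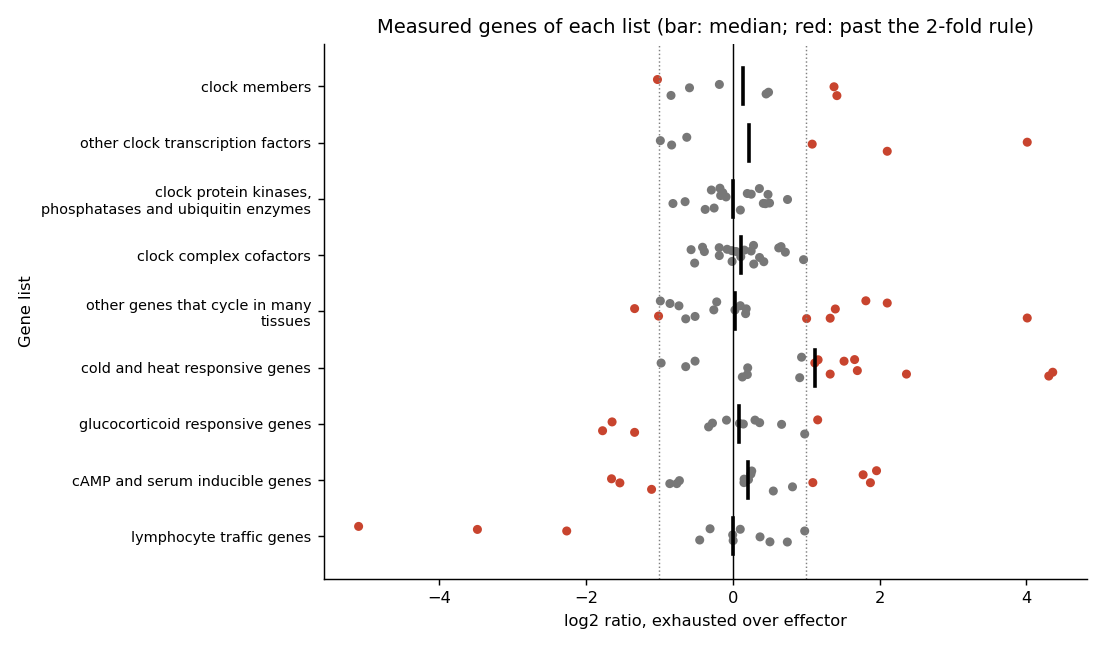
Log2 ratios of the measured genes of the clock list and of 8 further lists, with the median of each list as a bar, red for genes past the 2-fold rule and dotted lines at 2-fold. The enzyme and cofactor lists lie within 2-fold, and the median of the cold and heat list, at 1.12, lies beyond the upper line.

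Of 19 measured genes that cycle in many tissues other than the members, 6 passed upwards and 2 downwards, and 11 stayed within the rule. The shares over all measured genes were 6.65% upwards and 7.07% downwards. The median log2 ratio of the 19 genes was 0.03. Besides Nfil3 and Ciart the higher ones included Wee1, which encodes a brake on entry into mitosis and a target of the Arntl and Clock pair (74 and 281 reads, ratio 3.51, 2.71 to 4.60). The others, named after their values were seen, were Tspan4 (13 and 37 reads, with exons that overlap Chid1 on the other strand), Hsp90aa1 (ratio 2.51) and Hspa5 (ratio 2.01, at the threshold). The lower ones, also named afterwards, were Tsc22d3, the glucocorticoid-induced leucine zipper gene (4949 and 2117 reads, 2.53-fold lower, 2.40 to 2.66), and Ccrn4l, the nocturnin gene (179 and 96 reads, 2.02-fold lower, 1.57 to 2.61). Only 1 lower call was left under upper quartile scaling, with the deeper library thinned or with a prior count of 2. The same held with the interval wholly beyond 2-fold, and at 4-fold the count was 0. Usp2, a ubiquitin protease gene that cycles with Dbp in many tissues, was not measured (23 and 16 reads).

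Signals known to reset clocks were followed through their own target genes. Of 17 cold and heat responsive genes 9 passed the rule upwards and none downwards, which left 8. Over all measured genes 6.65% passed upwards and 7.07% downwards. The median log2 ratio of the 17 genes was 1.12. The chaperone genes Hspa1b (63 and 1397 reads, ratio 20.5) and Hspa1a (ratio 19.8), near-identical copies that can share reads, and Hsph1 (ratio 5.15) led the list. Heat genes within 2-fold, named after their values were seen, included Hspd1 (ratio 1.91), Dnaja1 (1.88), Hspa4 (1.15) and the heat shock factor genes Hsf1 (1.09) and Hsf2 (1.15). The 3 genes of the list with ratios under 1, also named afterwards, were the splicing factor gene Srsf5 (4805 and 2640 reads, 1.97-fold lower, 1.88 to 2.07) and the cold-induced RNA-binding protein genes, with Rbm3 at 1753 and 1215 reads (1.56-fold lower, 1.45 to 1.68) and Cirbp at 432 and 327 (1.43-fold lower, 1.23 to 1.65). These 3 lay within 2-fold.

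Per1 is also a glucocorticoid target, and the other 13 measured glucocorticoid responsive genes held 1 call upwards and 3 downwards around a median of 0.09. Over all measured genes the shares were 6.65% and 7.07%. The lower genes of the list were Pik3ip1, which encodes an inhibitor of PI3 kinase (3.42-fold), Errfi1, a feedback inhibitor gene of EGF receptor signalling (107 and 37 reads, 3.13-fold), and Tsc22d3. The higher one, named afterwards, was Ddit4 (ratio 2.23), and Fkbp5, a classical target, had a ratio of 1.23 (1.13 to 1.34). Per1 thus lay on the side of Ddit4 and opposite to the 3 lower genes. Of the 13 genes 7 had ratios above 1 and 6 below, and a part of glucocorticoids in the Per1 value was not tested.

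Per1 and Per2 are also cAMP targets, and of 17 cAMP and serum inducible genes 4 passed upwards and 3 downwards around a median of 0.21. The shares over all measured genes were 6.65% and 7.07%. Nr4a2, an orphan nuclear receptor gene (15 and 63 reads, ratio 3.88), Egr3 (28 and 111, ratio 3.66) and Egr2 (357 and 1321, ratio 3.42), both zinc finger factor genes, were higher. So was, named afterwards, Crem, which encodes cAMP-induced repressors (106 and 244 reads, ratio 2.13, 1.69 to 2.70). Those lower, named afterwards, were Sik1 (3.14-fold), Fos (2.91-fold) and Klf6 (2.15-fold). Sik1, a kinase gene induced by cAMP, thus lay opposite to Crem, and a part of cAMP in the Per values was not tested.

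Lymphocyte traffic genes were included because homing and exit of lymphocytes vary with time of day. Of 12 measured, none passed upwards and 3 did so downwards, and the median was 0.001. Of all measured genes 6.65% passed upwards and 7.07% downwards. The lower traffic genes included the chemokine receptor genes Ccr2 (95 and 3 reads, 34.3-fold, 11.4 to 169) and Cxcr5 (1413 and 137, 11.2-fold), whose exons overlap Bcl9l on the other strand. S1pr1, named after its value was seen, which encodes the receptor for exit from lymphoid organs, had a ratio of 0.998 (0.965 to 1.03). Cxcr4, a receptor for retention in bone marrow, also named afterwards, had 152 and 324 reads and a ratio of 1.97 (1.62 to 2.41), just within 2-fold.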

How the data were processed

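The deposited table holds raw read counts of each gene in the 2 libraries and, per the file headers, each gene's symbol, mm10 coordinates and length. Per the submitters' processing notes STAR 2.6 and build mm10 were used. For the counting program, its use of strand and the annotation, the sources used here say nothing. Per the labels' protocols, Trizol RNA of sorted cells went into low-input total RNA libraries. No molecular identifiers are recorded, so PCR copies can be counted more than once.

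A gene was measured if both libraries together held at least 50 of its reads. Counts were scaled by effective library sizes (edgeR 4.0.16, TMM, R 4.3.3), and ratios of exhausted to effector got exact Clopper-Pearson 95% intervals (scipy 1.17.1), which cover counting error only. A call needed 2-fold and an interval excluding equality. A library at 0 reads was set to a floor of 3. Ratios of ratios got exact conditional intervals. With 1 library per group no p-value was computed. The script was tested on simulated data. Exon overlap came from GENCODE M21, and promoters from RefSeq (GRCm38.p6).

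The members and lists were chosen with earlier results of these data known. The text names all members, every measured further clock factor, the 3 widest measured genes of each other list, and overlapping neighbours. Some genes that this rule names are not reported here. Genes outside this rule are marked as named afterwards, except unmeasured clock factors, Usp2, Fkbp5, Chid1 and Bcl9l, which were also chosen afterwards. Of the list entries 3 were second symbols of genes that the table holds under older names. Alternatives changed scaling, read minimum, depth, genes counted, floor, size rule and summary.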

Additional observations from a re-analysis of the deposited data

How the results depend on the processing

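All 60 recomputed log2 ratios of single clock genes, under scaling by total counts, by upper quartile or by DESeq2 1.42.0, other read minimums, a thinned deeper library, protein-coding genes alone and a prior count of 2, stayed within the counting interval of the reported value. Counts moved with the thresholds. The 2 higher clock genes became 1 at a minimum of 500 reads, which only Arntl and Cry1 met, and 0 at 4-fold. The 1 lower clock gene became 2 at a minimum of 1 read (with Per3) and 3 at 1.5-fold, and 0 at 4-fold or with the interval wholly beyond 2-fold. Their median log2 ratio of 0.13 became -0.39 at a minimum of 1 read and 0.45 without members whose exons overlap a gene on the other strand. The contrast of element classes, -0.75, became -0.54 without Nr1d1, -1.41 without Cry1, -0.13 from summed counts and, chosen after seeing the data, -1.12 without Per1. Over the 8 further lists, 20 genes were higher and 10 lower of 115, against 6.65% and 7.07% of all measured genes. Of the 20 higher genes 9 were in the cold and heat list, and the enzyme and cofactor lists held none. At 1.5-fold the counts over the 8 lists were 31 and 22 (13.7% and 13.6% of all measured genes). They were 5 and 3 at 4-fold, and 10 and 5 of 91 at a minimum of 500 reads. For 4-fold, other read minimums and the interval wholly beyond 2-fold, the share over all genes is not given. Counts at those settings therefore have no background beside them. No paired analysis was possible because each group holds 1 library, and for the same reason no library could be left out. Depth limits Nr1d1 most, at 8 and 3 reads.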

Other observations

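Some pairs of clock factors that act on the same element were compared after their values were seen. At D-boxes, where the product of Nfil3 represses and those of Dbp and Tef activate, Nfil3 had 0.333 reads for each Dbp read among effector reads and 9.63 among exhausted reads, a 28.9-fold change (95% counting interval 15.3 to 55.0). Against Tef the ratio of Nfil3 went from 0.0830 to 2.65, a 31.95-fold change (19.4 to 54.5). At ROR elements, where the product of Rora activates and that of Nr1d2 represses, Rora had 0.587 reads for each Nr1d2 read in the effector and 1.87 in the exhausted library, a 3.19-fold change (2.34 to 4.33). Among repressors of the Arntl and Clock pair, Ciart changed 8.76-fold against Cry1 (5.004 to 16.1) but 1.65-fold against Per1 (0.909 to 3.14), an interval that includes equality.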
